A study of Mus musculus with 12 samples.

Results

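Keratin genes were taken as all genes whose symbol is Krt followed by a digit, which gave 38 of the 13581 genes of the tables. Values were present for 37 of them, and Krt85, a hair keratin listed with no coordinates, had none. One member is named Krt72-ps, with the suffix of a pseudogene, but RefSeq (GRCm38.p6) lists it under the symbol Krt72. By the usual classes 20 were type I and 16 type II besides Krt8, which was kept apart. Krt18, the partner of Krt8, was not analysed here. By RefSeq (GRCm38.p6, a later assembly than the mm9 of the tables) all type I members lie on chromosome 11, and all type II members and Krt8 on chromosome 15. In mm9 their windows span 99094075 to 100133185 and 101180002 to 101836773. No keratin associated protein gene was among the tables' symbols.

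The assay reads 5-hydroxymethylcytosine (5hmC), which Tet enzymes make by oxidising 5-methylcytosine. It works by tagging the base with a modified glucose, coupling biotin, and sequencing the DNA captured on streptavidin (hMe-Seal). The 12 libraries came from EB5 embryonic stem cells (ESC) of the 129/Ola strain, grown with LIF and labelled as day 3 of culture, and from whole heart and whole liver of C57BL6/j mice at embryonic day 14 (E14), at 1 to 2 days after birth (P1) and as adults of 8 weeks (W8). There were 2 libraries for the stem cells and for either organ at P1 and at W8, and 1 for either organ at E14. Reads came from both fragment ends in ESC and P1 and from 1 end in E14 and W8, so age cannot be told apart from read format in comparisons of W8 with P1, nor strain from cell source in comparisons with ESC. EB5 is a single cell line. The labels name no genetic change or drug treatment in any group, which does not show that the cell line was unmodified. The labels do not say that replicates are separate animals or cultures, so p-values measure the spread between these libraries, which may be technical. In whole tissue, fewer cells carrying 5hmC at a gene and less 5hmC per cell cannot be told apart.

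Keratins are the intermediate filament proteins of epithelial cells, and each filament is built from pairs of 1 type I and 1 type II protein. Krt8 and Krt18 make the filaments of simple epithelia, including hepatocytes, Krt5 and Krt14 those of the basal layer of the epidermis, and Krt1 and Krt10 those of its upper layers. Hair keratins and inner root sheath keratins are made in the hair follicle. Heart muscle uses desmin in place of keratins. In many cell types 5hmC is high over the bodies of active genes and at poised regulatory regions, and low at unmethylated CpG-rich promoters and in stably silent chromatin.

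Since the tag sits on cytosine, mostly in CG dinucleotides, the promoter sequence sets how many sites a pull-down can catch close to the start. RefSeq promoters, 250 bases before to 50 after the start, were matched for 27 of the 37 members. Krt14 was left out, since its RefSeq start, placed by its neighbours, lay 1518 bp from the start that the deposited window is built on. All of the other 26 held at least 1 CG, against 94.2% of 27025 genes. The median was 6 CG, with a range of 2 to 21, against 7 for all genes. Only Krt7 had 20 or more, which 26.8% of all genes had, and 20 of the 26 had 6 or fewer, against 47.7%. The 3 sequences below show the CG-rich Krt7, Krt8 of simple epithelia and Krt31. Averaged over all libraries, the promoter level of Krt8 was among the 3 highest and that of Krt31 the lowest. The sequences are in GRCm38.p6, on the strand of the gene, with every CG in capitals.
Krt7, chr15:101412153-101412452, plus strand: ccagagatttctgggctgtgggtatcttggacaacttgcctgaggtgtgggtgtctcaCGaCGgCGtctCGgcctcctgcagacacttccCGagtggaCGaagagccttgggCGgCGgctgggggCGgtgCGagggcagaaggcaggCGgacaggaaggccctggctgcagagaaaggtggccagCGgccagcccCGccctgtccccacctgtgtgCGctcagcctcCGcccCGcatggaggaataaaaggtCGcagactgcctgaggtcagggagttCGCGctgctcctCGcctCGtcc
Krt8, chr15:102004293-102004592, minus strand: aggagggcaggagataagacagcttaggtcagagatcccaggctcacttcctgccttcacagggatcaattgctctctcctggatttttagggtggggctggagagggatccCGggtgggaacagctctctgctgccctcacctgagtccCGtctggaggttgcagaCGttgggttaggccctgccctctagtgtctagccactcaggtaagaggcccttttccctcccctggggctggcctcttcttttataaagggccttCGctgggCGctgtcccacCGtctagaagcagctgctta
Krt31, chr11:100050502-100050801, minus strand: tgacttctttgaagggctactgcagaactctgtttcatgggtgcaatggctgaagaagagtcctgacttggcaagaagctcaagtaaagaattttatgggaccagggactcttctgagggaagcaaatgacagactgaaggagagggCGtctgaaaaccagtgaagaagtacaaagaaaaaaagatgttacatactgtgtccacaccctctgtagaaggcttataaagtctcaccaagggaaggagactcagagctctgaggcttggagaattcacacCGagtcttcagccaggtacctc
The 3 hold 21, 6 and 2 CG. Across the 26 members the CG count and the promoter FPKM had Spearman correlations of 0.08 in E14 heart to 0.25 in W8 heart. This is a description only, since all points share their libraries. The count covers 300 bases, while the FPKM covers a window of 4000 bp whose CG were not counted.

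The deposited values are FPKM, the reads of a window scaled by its length and by library depth, for the gene body and for a promoter window 4000 bp long. For 29 of the 37 members the gene's RefSeq length exceeded the body by 1900 to 2100 bp, so the body begins about 2000 bp inside the gene and the promoter window reaches as far into it. Both windows hold exons and introns, so no value here is exonic or intronic alone. The Krt17 promoter window overlaps the Krt42 body by 143 bp, and the Krt222 body overlaps the promoter window of Smarce1 by 257 bp. How reads that match several near-identical keratin genes were counted is not given in the sources used here, so values of such neighbours, the hair keratins among them, are uncertain. Levels are relative, as no unenriched DNA entered the comparisons.

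Depth limits what single members can show. Libraries held 142778 to 5761636 reads over gene bodies, the lowest in W8 heart replicate 2. The median keratin body held 1.01 reads there and 3 to 32 in the other 11 libraries, and the median keratin promoter 0 and 2 to 23. In W8 heart replicate 2, 25 of the 37 keratin promoters had no read. For this reason results are also given without that library. It enters every comparison through the spread shared by all groups. In gene bodies marker lists went with the tissue labels at W8, less clearly in heart replicate 2. Of 9 cardiomyocyte markers 8 were higher and 0 lower in heart, and of 10 hepatocyte markers 7 were lower and 0 higher. Of all genes 9.48% were higher and 21.3% lower. The median hepatocyte marker stood at the 26.1st percentile in heart replicate 1 and the 58.0th in replicate 2. In liver it stood at 90.9 and 92.4. The median cardiomyocyte marker stood at 97.5 and 86.5 in heart and at 43.4 and 31.9 in liver. No promoter of either list passed.

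Keratin genes ranked highest in ESC and lowest in adult liver. Over promoter windows the median member stood at the 72.5th and 79.1st percentile of all genes in the ESC libraries, and at the 12.4th and 12.8th in W8 liver. Over gene bodies these were 58.0 and 61.1 in ESC and 14.1 and 16.5 in W8 liver. Newborn tissue lay between. Promoters stood at 40.5 and 36.5 in P1 heart and 26.9 and 26.5 in P1 liver, and bodies at 33.8 and 35.4, and 25.2 and 22.6. At E14, with 1 library a tissue, bodies stood at 21.8 in heart and 32.7 in liver, and promoters at 22.9 and 27.0. In W8 heart replicate 1 bodies stood at 45.9 and promoters at 53.6. The shallow replicate 2 had 64.0 and 23.1, the latter being the rank that promoters without a read share.

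**Figure D1:**
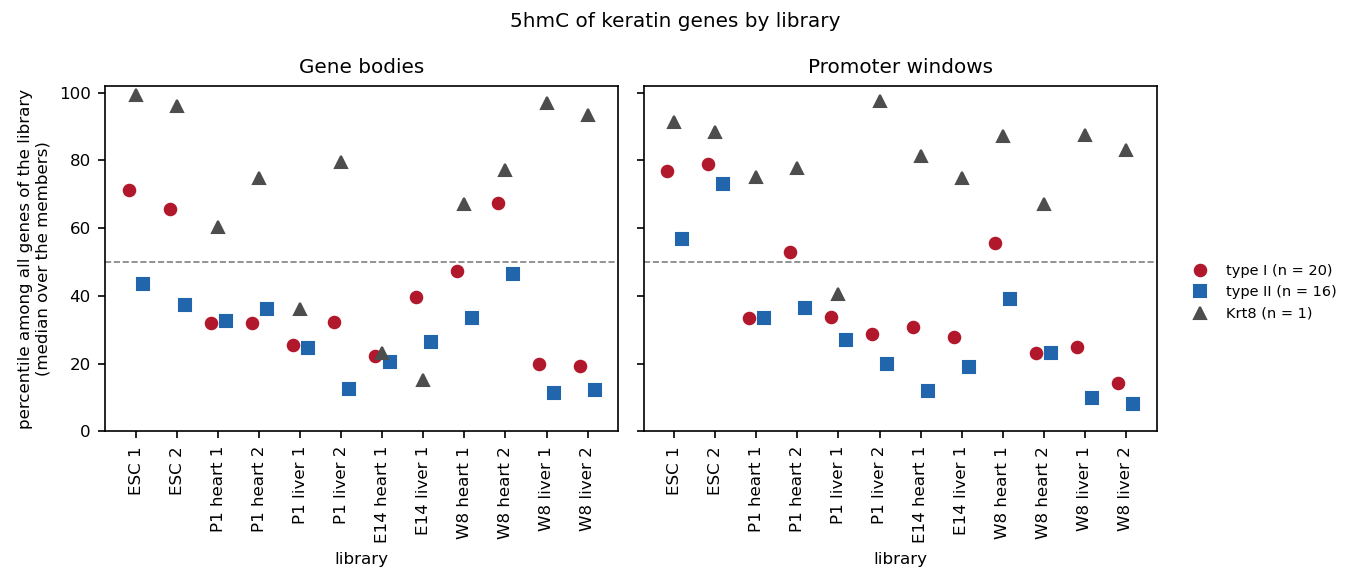
Median percentile of type I (circles) and type II (squares) members and of Krt8 (triangles) among all genes of each library, on a vertical axis from 0 to 100, for gene bodies (left) and promoter windows (right). The dashed line marks the median gene. Type I bodies lie above it in both ESC libraries (71.3 and 65.6) and below it in every P1, E14 and W8 liver library.

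Reads pooled over the members were also highest in ESC. The 37 bodies together had 1.05 FPKM (472 reads, exact Poisson 95% interval 0.958 to 1.15) and 1.01 FPKM (894 reads, 0.947 to 1.08) in ESC. In W8 liver they had 0.406 (0.378 to 0.435) and 0.421 (0.392 to 0.452). The intervals cover counting error only, as reads carry no molecular identifiers. All gene bodies pooled had 0.685 and 0.651 in ESC and 0.631 and 0.634 in W8 liver, so the ratio of keratins to all genes was 1.53 and 1.56 in ESC and 0.643 and 0.664 in W8 liver. The ratio was 0.968 and 0.974 in newborn heart and 0.859 and 0.829 in newborn liver. Adult heart had 1.04 and 1.44, the latter from 56 reads.

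Type I bodies had a higher pooled level than type II bodies, taken without Krt8, in ESC, in liver at every age and in adult heart. In ESC type I bodies had a pooled level of 1.22 and 1.18 FPKM, and type II bodies of 0.799 and 0.827, with counting intervals that do not overlap between the clusters. Type I bodies stood at 1.79 and 1.81 times the pooled level of all genes, type II bodies at 1.17 and 1.27 times. In adult liver both were lower, at 0.415 and 0.466 FPKM for type I and 0.295 and 0.310 for type II. Without Krt8 the intervals did not overlap there either. Krt8 held 134 and 96 reads in adult liver, beside 324 and 311 over the other type II bodies, so the type II level would be higher with it. Newborn liver had 0.739 and 0.756 for type I and 0.603 and 0.428 for type II, without overlap in replicate 2 only. E14 liver had 0.483 for type I and 0.398 for type II, without overlap. Adult heart had 0.644 and 0.789 for type I and 0.551 and 0.744 for type II, within overlapping intervals. In newborn heart the order was reversed, with 0.579 and 0.621 for type I and 0.801 and 0.687 for type II, within overlapping intervals. E14 heart had 0.405 for type I and 0.415 for type II, also within overlapping intervals. Promoter windows set the clusters apart less. In W8 liver type I promoters had 0.451 and 0.390 FPKM and type II promoters 0.368 and 0.390, within overlapping intervals. Promoter intervals also overlapped in ESC replicate 2, but not in ESC replicate 1. The difference between the clusters was not tested, as members of a cluster are neighbours and not replicates.

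**Figure D2:**
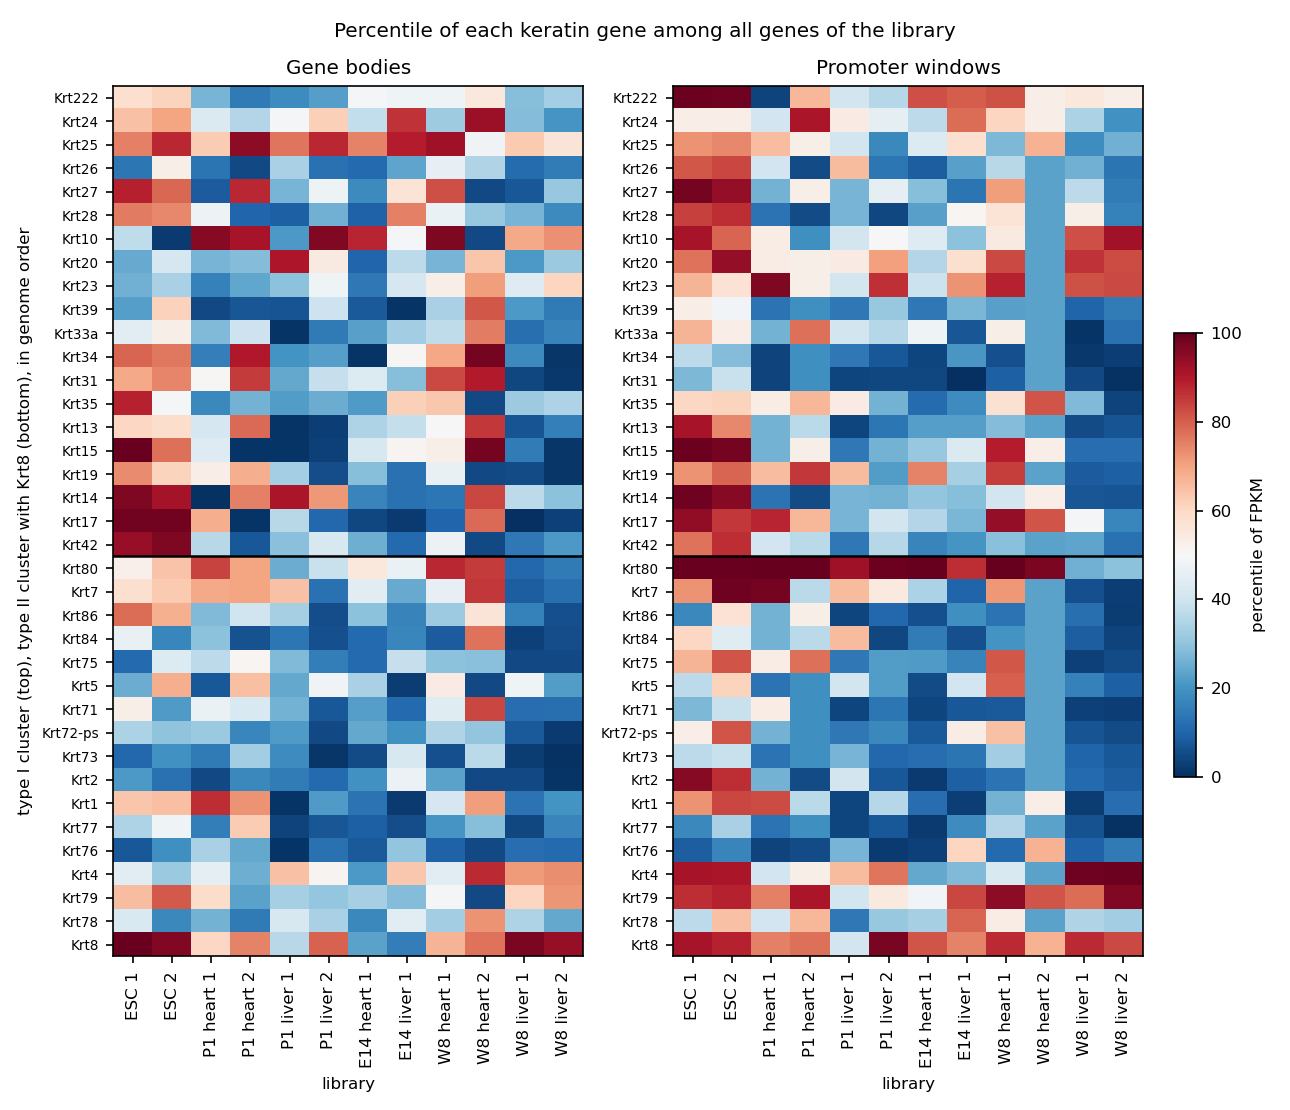
Percentile of FPKM of each of the 37 members among all genes of the library (colour, 0 to 100), with members as rows in genome order (type I above the line, type II with Krt8 below) and the 12 libraries as columns. In promoter windows Krt10, Krt20, Krt23, Krt4, Krt79 and Krt8 stand at the 78.1st percentile or higher in both adult liver libraries. In the promoter column of W8 heart replicate 2, the 25 members without a read share 1 rank.

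The comparisons of newborn tissue with ESC asked where 5hmC differs between pluripotent cells and differentiated organs. Both use the same 2 ESC libraries and so are not independent. Keratins lay below ESC in both organs, more so than the genes at large. Over gene bodies 29 of 37 members were lower in P1 heart, against 57.9% of all genes, and 30 of 37 were lower in P1 liver, against 44.4%. The median log2 difference was -0.56 in heart, where all genes had -0.13, and -0.94 in liver, where all genes had 0.10. Of the 20 type I members, 19 were lower in heart and 16 in liver. Type II members were lower for 9 and 13 of 16.

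Few single members passed the test (limma on log2(FPKM + 0.0746), adjusted p under 0.05 over 13498 genes). In P1 heart 2 members were lower, against 7.11% of all genes, and 0 higher, against 5.59%. In P1 liver 4 were lower, against 5.05%, and 0 higher, against 10.4%. These shares, 5.41% and 10.8% of the members, lie below and above the background. The members were Krt8 and Krt222 in both organs, and Krt13 and Krt77 in liver. Leaving out either ESC library left 0 calls in both organs, as did leaving out P1 heart replicate 2 in heart and P1 liver replicate 1 in liver.

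Krt222, a keratin-like gene at the edge of the type I cluster (body 99094075 to 99103381 in mm9), had 1.07 and 1.06 FPKM in the ESC libraries, against 0.506 and 0.297 in newborn heart and 0.451 and 0.513 in newborn liver. At E14 it had 0.662 in heart and 0.511 in liver, and at W8 0.592 and 0.668 in heart and 0.447 and 0.517 in liver. Both ESC libraries lie above every tissue library. The body fell by 1.29 ± 0.23 (log2, SE, adjusted p = 0.0208) in heart and by 1.03 ± 0.23 (adjusted p = 0.0297) in liver.

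Krt13, a type I keratin of stratified mucosa such as the oesophagus (body 99978641 to 99980880), had 1.11 and 1.01 FPKM in ESC and 0 and 0.125 in P1 liver. The P1 liver values rest on 0 and 1 read. The log2 difference was -3.21 ± 0.56 (adjusted p = 0.0154), and pooled reads put liver at 0.0947 of ESC with a counting interval of 0.00224 to 0.622. Krt77, known from sweat gland ducts, had 0.663 and 0.843 in ESC and 0.117 and 0.219 in P1 liver, which do not overlap (-1.80 ± 0.48, adjusted p = 0.0470). Its P1 heart values, 0.350 and 0.925, span those of ESC, and the 2 newborn organs did not differ past the threshold (adjusted p = 0.127).

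In promoter windows the same direction was seen with less power. Promoters were lower in P1 heart for 29 of 37 members, against 50.7% of all genes, and in P1 liver for 34 of 37, against 35.8%. Medians were -0.96 and -0.78, against -0.02 and 0.44 for all genes. Both P1 heart libraries lay below both ESC libraries for 23 members (62.2%), a pattern shown by 26.0% of all genes. In P1 liver this held for 22 members (59.5%), against 19.8%. None passed the test, which over 13506 genes called 0.0444% lower in P1 heart and 0.0148% lower in P1 liver. At an unadjusted p under 0.05 there were 6 and 4 members (16.2% and 10.8%), against 12.5% and 17.9% of all genes. The fit was also run on simulated reads with changes of known size, for P1 heart against P1 liver only. Of promoters changed by 2 on the log2 scale it recovered 0.0%, and of those changed by 3 it recovered 18.4%. The gene body fit recovered 66.3% and 81.6%. The simulated reads varied by counting error only. The median keratin promoter held 9 and 19 reads in ESC, against 3 and 2 in P1 heart and 2 and 8 in P1 liver. The recovered shares therefore do not carry over to the comparisons with ESC.

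With W8 heart replicate 2 left out, a library of neither group, 5 promoters were lower in P1 heart, those of Krt14, Krt28, Krt15, Krt222 and Krt4, against 2.7% of all genes. In P1 liver 2 were lower, those of Krt15 and Krt13, against 3.25%. Gene bodies lower in P1 heart then numbered 5, against 19.5%, with Krt42, Krt24 and Krt35 added to Krt222 and Krt8. In P1 liver there were 8, against 12.8%, adding Krt42, Krt15, Krt35 and Krt31 to the 4 above.

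Krt14 and Krt15 are type I keratins of basal epidermal cells. The promoter window of Krt14 had 2.85 and 1.96 FPKM in ESC, and at P1 0.196 and 0 in heart and 0.524 and 0.562 in liver. Adult heart had 0.482 and 0.756 and adult liver 0.140 and 0.123, and at E14 0.409 in heart and 0.386 in liver. Every tissue library lies below both ESC libraries. The 54 ESC reads against 1 in P1 heart gave a ratio of 21.3, with an interval of 3.66 to 856, and the difference was -4.13 ± 0.72 (adjusted p = 0.0163) without W8 heart replicate 2 but had an adjusted p = 0.0962 with it. Krt15, also known from the hair follicle bulge, had promoter values of 3.10 and 2.27 in ESC, against 0.393 and 0.692 in newborn heart and 0.262 and 0.562 in newborn liver, again without overlap. Its difference in P1 liver was -2.56 ± 0.55 (adjusted p = 0.0161) without that library and missed the threshold with it (adjusted p = 0.108).

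Other members of these layers did not pass in either window with all libraries. The body of Krt17, a keratin of skin appendages and wounded epidermis, had 3.17 and 2.78 FPKM in ESC, against 1.12 and 0 in P1 heart (log2 difference -3.35 ± 1.26, adjusted p = 0.120). Krt5, the type II partner of Krt14, had only 0.519 and 1.19 in ESC, against 0.205 and 0.965 in P1 heart, which overlap. Krt1, a type II keratin of the upper epidermis, had 1.18 and 1.13 in ESC, and at P1 1.64 and 1.10 in heart and 0 and 0.502 in liver. The body of Krt10, its partner, was among the 8 that were higher in P1 heart, with 0.705 and 0.120 in ESC, against 2.23 and 1.75 in P1 heart, but from 1 to 6 reads a library (adjusted p = 0.293). Its promoter window was lower, with 1.86 and 1.2 in ESC and 0.785 and 0.231 in P1 heart.

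The comparison of adult heart with adult liver asked where 5hmC differs between organs in libraries of 1 read format. The gene bodies of keratins tended to be higher in heart, while genes at large tended to be lower. Of 37 members 26 were higher in W8 heart, and the median log2 difference was 0.70, where 65.0% of all genes were lower and their median was -0.32. Both heart libraries lay above both liver libraries for 20 members (54.1%), against 21.7% of all genes. For heart replicate 1 alone this held for 29 members (78.4%), against 31.9%. The medians were 0.44 for type I and 1.18 for type II members. Promoter medians depended on the shallow library, with -0.03 for keratins and -0.49 for all genes with it, and 0.76 and -0.28 without it, when 31 of 37 promoters were higher in heart.

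In the test 7 members were higher in W8 heart (18.9%), against 9.48% of all genes, and 1 was lower (2.7%), against 21.3%. The 7 were Krt80, Krt7 of simple epithelia, the hair keratins Krt31 and Krt34, Krt71 and Krt75 of the hair follicle sheaths, and Krt13. The lower one was Krt8. Without W8 heart replicate 2 there were 4 higher (Krt31, Krt80, Krt2 and Krt19), against 12.9%, and 1 lower (Krt8), against 26.9%. The share of higher members was then 10.8% and below the background. Krt31, Krt80 and Krt8 were called in both fits. Leaving out either W8 liver library left 0 calls, and leaving out W8 heart replicate 1 gave 13.

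Krt80 (body 101180002 to 101198556, promoter window 101198557 to 101202556) is the first member of the type II cluster and the longest body among the keratins. Its body had 1.13 and 1.33 FPKM in W8 heart, from 153 and 8 reads, and 0.201 and 0.259 in W8 liver, from 33 and 39. ESC had 0.962 and 1.12, P1 heart 1.52 and 1.04, P1 liver 0.565 and 0.742, E14 heart 0.726 and E14 liver 0.504. Adult liver lies below every other library. W8 heart exceeded W8 liver by 2.10 ± 0.23 (adjusted p = 0.0043), and by 2.00 ± 0.28 (adjusted p = 0.00478) without W8 heart replicate 2.

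The promoter window of Krt80 had the highest mean of any keratin promoter. It had 3.35 and 2.84 FPKM in ESC, which is the 99.5th percentile in both libraries. Newborn heart had 3.34 and 3.69, newborn liver 2.36 and 2.81, and at E14 heart had 2.15 and liver 0.933. In W8 heart it had 2.83 and 3.07, from 82 and 4 reads, and in W8 liver 0.366 and 0.432, from 13 and 14, which is the 25.9th and 29.7th percentile. Every library outside adult liver has at least 0.933 FPKM. Heart exceeded liver at W8 by 2.68 ± 0.33 (adjusted p = 0.0145), and W8 liver fell by 2.49 ± 0.33 from P1 liver (adjusted p = 0.0342). In each of these comparisons Krt80 was the only gene called, which is 0.0074% of 13506. Without W8 heart replicate 2 the fall in liver held (adjusted p = 0.0221, 0.104% of genes called). Both promoter calls were lost in most of the 15 alternative settings, 10 for the organs and 11 for age, none of which reversed the direction. The difference between organs was not called without W8 heart replicate 2, with 0 members and 0.0% of all genes past the threshold and 10 members (27.0%) at an unadjusted p under 0.05, against 9.8% of all genes.

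Krt31, a type I hair keratin (body 99907960 to 99909865), had 1.02 and 1.59 FPKM in adult heart, against 0.116 and 0.0656 in adult liver. These rest on 14 and 1 reads in heart and 2 and 1 in liver. ESC had 1.30 and 1.32, P1 heart 0.824 and 1.45, P1 liver 0.550 and 0.737, E14 heart 0.593 and E14 liver 0.404, all above adult liver. Heart exceeded liver at W8 by 3.04 ± 0.33 (adjusted p = 0.00424), and pooled reads gave a ratio of 11.2 with a counting interval of 3.17 to 60.4. Without W8 heart replicate 2 the difference was 2.74 ± 0.36 (adjusted p = 0.00431). Its promoter window of 4000 bp had the lowest mean of the keratin promoters and at most 0.505 FPKM in any library. The 300 bases shown above, with 2 CG, are only a part of that window, whose CG were not counted.

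The other called members were less firmly placed. Krt34, a neighbour of Krt31, had 0.812 and 2.82 FPKM in adult heart, against 0.306 and 0.0567 in adult liver (2.84 ± 0.83, adjusted p = 0.0401). Krt7, a type II keratin of ducts and mesothelium, had 0.573 and 1.35 in heart and 0.177 and 0.225 in liver (1.81 ± 0.56, adjusted p = 0.0487). Krt71 had 0.557 and 1.27 in heart and 0.220 and 0.223 in liver, and Krt75 0.433 and 0.353 against 0.118 and 0.115. Krt13 had 0.613 and 1.35 in heart and 0.150 and 0.275 in liver. In all 5 the groups did not overlap, and in all 5 the call was lost without W8 heart replicate 2.

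**Figure D3:**
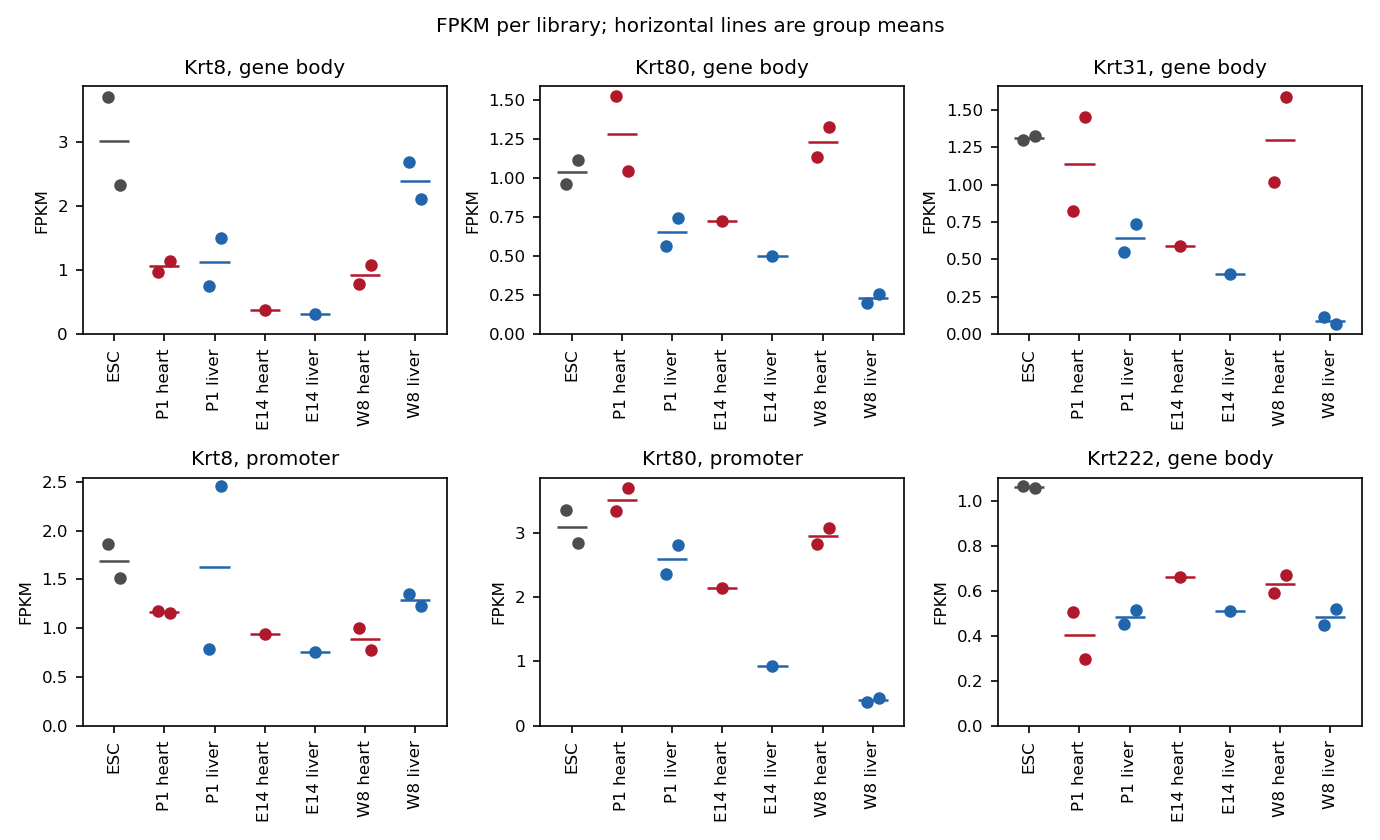
FPKM of Krt8 and Krt80 (gene body and promoter window) and of Krt31 and Krt222 (gene body) in each library, with 1 point a library, horizontal lines for group means, red for heart, blue for liver and grey for ESC. Krt8 has 2.68 and 2.10 FPKM over its body in W8 liver, while Krt80 and Krt31 are lowest there.

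Krt8, the type II keratin of hepatocytes and other simple epithelia (body 101827142 to 101832773), was high in adult liver, where most of its cluster was low. Its body had 2.68 and 2.10 FPKM in W8 liver, the 97.1st and 93.5th percentile, from 134 and 96 reads. W8 heart had 0.782 and 1.07, from 32 and 2 reads. ESC had 3.70 and 2.33, P1 heart 0.976 and 1.15, P1 liver 0.745 and 1.5, E14 heart 0.380 and E14 liver 0.319. ESC and adult liver are the high groups, and every other library has at most 1.5. At W8 the body was lower in heart than in liver by 1.30 ± 0.36 on the log2 scale (-1.30, adjusted p = 0.0354; -1.51 ± 0.44 and adjusted p = 0.0374 without W8 heart replicate 2). It fell by 1.41 ± 0.36 from ESC to P1 heart (adjusted p = 0.0478) and by 1.41 ± 0.36 to P1 liver (adjusted p = 0.0427). From P1 to W8 liver the difference of 1.11 ± 0.36 did not pass (adjusted p = 0.103).

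Its promoter window varied less. It had 1.86 and 1.51 FPKM in ESC, and at P1 1.18 and 1.15 in heart and 0.786 and 2.46 in liver. At E14 heart had 0.944 and liver 0.756, and at W8 heart had 0.998 and 0.778 and liver 1.35 and 1.23. The W8 groups do not overlap, but the difference of -0.51 ± 0.53 did not pass (adjusted p = 0.639). The P1 liver libraries, from 3 and 35 reads, lie far apart, and 1 of them is the highest of all.

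Krt8 was not alone above the low level of its neighbours in adult liver. Over promoter windows 5 other members had at least 1.10 FPKM in both W8 liver libraries, a group singled out after the values were seen. Krt4, a type II mucosal keratin, had 2.28 and 2.22, the 98.8th and 98.9th percentile. Its neighbour Krt79, known from the hair canal, had 1.10 and 1.82. In the type I cluster the neighbours Krt10, Krt20 and Krt23 had 1.18 and 1.52, 1.29 and 1.21, and 1.18 and 1.23. Krt20 and Krt23 are type I keratins of intestinal and other glandular epithelia. The 31 others had less in both libraries. Among them Krt78, which lies between Krt79 and Krt8, had 0.479 and 0.464. The bodies of Krt4 and Krt79 also stood above the median gene in adult liver, at the 71.3rd and 73.2nd and at the 60.8th and 72.3rd percentile. Heart replicate 1 had 0.484 for Krt4, and the difference between organs at W8 was -3.53 ± 0.80 (adjusted p = 0.231), with heart replicate 2 at 0, and -2.06 ± 0.44 (adjusted p = 0.216) without that library.

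Krt19, the type I keratin of bile ducts and mesothelium, was low in adult liver. Its body had 1.42 and 1.05 FPKM in ESC, and at P1 0.864 and 1.01 in heart and 0.692 and 0.185 in liver. Adult heart had 0.576 and 0 and adult liver 0.124 and 0.0535. The W8 groups overlap through the shallow heart library (adjusted p = 0.734), and without it heart was higher by 2.03 ± 0.62 (adjusted p = 0.0444). Of 4 mesothelial markers other than keratins 2 were higher in W8 heart over the gene body (Wt1 and Upk1b), against 9.48% of all genes, and 1 lower (Lrrn4), against 21.3%. Their summed FPKM was 3.02 and 1.42 in adult heart, against 2.32 and 2.06 in adult liver, with 1 marker at 0 in heart replicate 2. The part of such cells in the keratin values was not tested.

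In newborn heart against newborn liver, libraries of 1 read format, keratins showed no common direction. Over gene bodies 19 members were higher and 18 lower, with a median of 0.15, while 67.3% of all genes were lower and their median was -0.23. One member passed, Krt13, higher in heart (2.7% of members, against 0.348% of all genes), and 0 were lower, against 1.93%. It had 0.701 and 1.23 FPKM in P1 heart, from 2 and 3 reads, and 0 and 0.125 in P1 liver (3.04 ± 0.56, adjusted p = 0.0474). The pooled ratio of 9.57 had an interval of 1.07 to 453, and the call was lost on leaving out any 1 library of the groups compared. Without W8 heart replicate 2 there were 2 higher (Krt13 and Krt80), against 5.9%, and 3 lower (Krt20, Krt24 and Krt23), against 16.5%. Krt20 had 0.507 and 0.476 in P1 heart and 2.17 and 0.979 in P1 liver, and Krt23 0.358 and 0.420 against 0.637 and 0.875. No promoter passed, where 0.0074% of all genes did, and 1 member (2.7%) had an unadjusted p under 0.05, against 9.24% of all genes.

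Adult against newborn liver asked how 5hmC of the organ differs with age, which here goes with read format. Over gene bodies 25 of 37 members were lower at W8, with a median of -0.72, against 67.0% and -0.23 for all genes. The 2 members called, both lower (5.41%, against 8.9% of all genes), were Krt31 (-2.12 ± 0.33, adjusted p = 0.0145) and Krt80 (-1.25 ± 0.23, adjusted p = 0.0226). None was higher, against 0.933%. Both calls were lost on leaving out any 1 library of the groups compared. Krt31 rests on 3 reads in W8 liver and 6 in P1 liver (ratio 0.133, interval 0.0215 to 0.622). Without W8 heart replicate 2 there were 6 lower, against 21.1%. E14 liver, read in the format of W8, had 0.432 FPKM over all keratin bodies pooled, against 0.406 and 0.421 in W8 liver and 0.664 and 0.593 in P1 liver. In E14 heart it was 0.410, against 0.712 and 0.671 in P1 heart. Relative to all gene bodies pooled, however, E14 liver stood at 0.953, above P1 liver and W8 liver, and E14 heart at 0.698, below P1 heart and W8 heart. With 1 library an organ these are values without a test.

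Adult against newborn heart gave no called member in either window. Of all genes 0.0148% passed limma in gene bodies and 0.0074% in promoters. At an unadjusted p under 0.05 there were 3 bodies (8.11%), against 25.6% of all genes, and 4 promoters (10.8%), against 15.8%. Body medians were -0.03 for keratins and -0.30 for all genes. Whether the difference between organs changed from P1 to W8 was tested as an interaction. No member passed in bodies, where 0.0148% of genes did, or in promoters, where 0.0% did. Unadjusted p-values under 0.05 were found for 7 bodies (18.9%), against 19.2% of all genes, and for 3 promoters (8.11%), against 6.32%. For Krt80 the body difference between organs was larger at W8 by 1.22 ± 0.33, which did not pass (adjusted p = 0.141). The body median of the interaction was 0.71, toward heart at W8, against -0.06 for all genes. At E14, where 1 library an organ allows no test, 19 bodies were higher in heart and 18 lower, with a median of 0.06 against 0.25 for all genes.

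**Figure D4:**
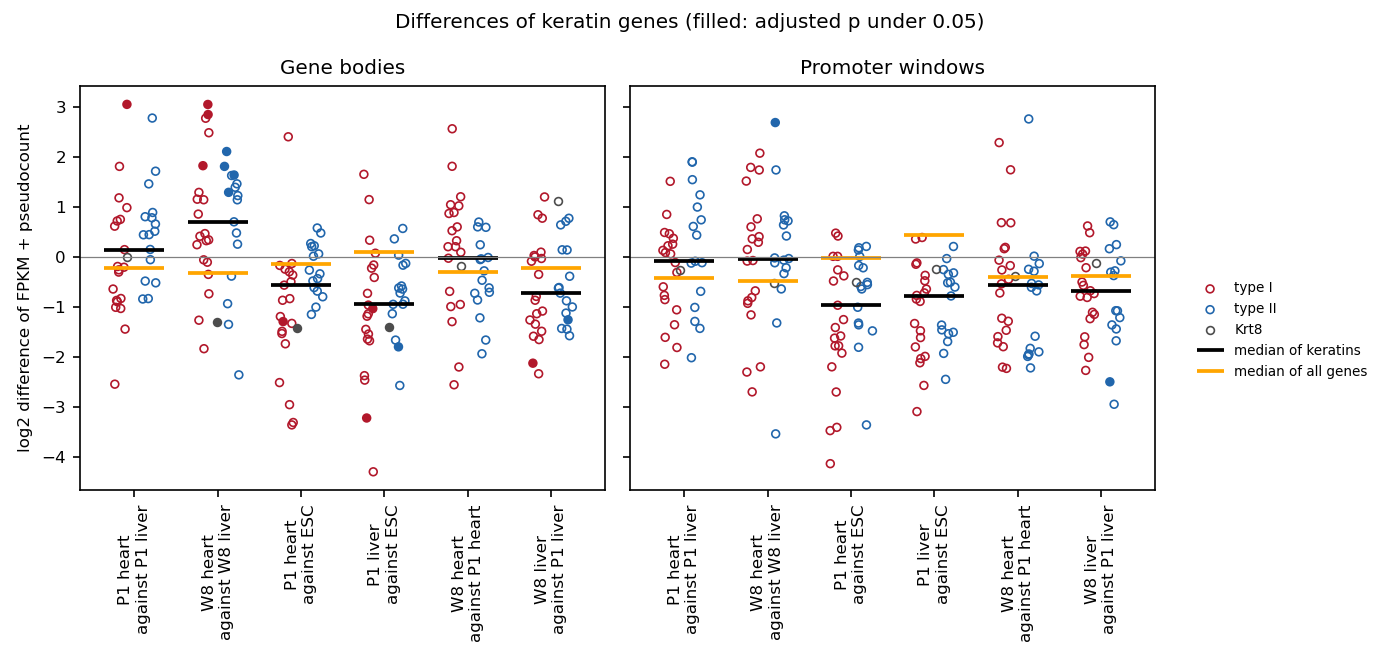
Log2 differences of the 37 members (red type I, blue type II, grey Krt8, filled where the adjusted p is under 0.05) in 6 comparisons, for gene bodies (left) and promoter windows (right), with the median of keratins in black and of all genes in orange. The black line lies below the orange one in both comparisons with ESC (gene bodies -0.56 and -0.94, all genes -0.13 and 0.10) and above it in W8 heart against W8 liver (0.70, all genes -0.32).

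The most and least enriched members were not those of 1 class. Averaged over all libraries, the highest bodies were Krt8, Krt25 of the inner root sheath and Krt10, with 1.48, 1.27 and 1.13 FPKM. The lowest were Krt76 of the palate (0.273), Krt2 of the upper epidermis (0.278) and Krt73 of the inner root sheath (0.288). Among promoters Krt80 (2.35), Krt8 (1.25) and Krt79 (1.24) were highest and Krt31 (0.137), Krt34 (0.188) and Krt77 (0.188) lowest. Krt76 was the only member without a read in all libraries of a group, its promoter in P1 heart, where 3 reads over the group would be 0.318 FPKM.

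Other genes of epithelial structure were followed in the gene bodies. Of all genes, 9.48% passed as higher and 21.3% as lower in the comparison of adult heart with adult liver. The shares were 5.59% and 7.11% for newborn heart set against ESC. Of 15 desmosome genes, whose plaques anchor keratin filaments, 2 were higher (Jup and Dsg1a) and 2 lower (Evpl and Pkp3) in P1 heart than in ESC. In W8 heart 3 were lower than in W8 liver, Dsg2 (-1.39 ± 0.25, adjusted p = 0.0101), Dsc2 and Pkp4, and 0 higher, a share near that of all genes. Their median at W8 was -0.35, close to the -0.32 of all genes. Of 14 other intermediate filament genes 1 was higher in W8 heart, Des, which encodes desmin (1.67 ± 0.41, adjusted p = 0.0253), with a list median of 0.33. In P1 heart Ina, a neuronal filament gene, was lower than in ESC (-2.68 ± 0.33). Of 12 genes of epidermal differentiation 2 were higher in W8 heart, Alox12b (1.02 ± 0.19) and Tgm3 (1.12 ± 0.23), and the same number lower in P1 heart than in ESC, Alox12b and Sbsn.

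Among 20 regulators and adhesion genes of epithelia 2 were higher and 3 lower in W8 heart, against the same 9.48% and 21.3% of all genes. Higher were the transcription factors Elf3 (2.05 ± 0.33, adjusted p = 0.00806) and Grhl3 (1.08 ± 0.31). Lower were Cdh1, which encodes E-cadherin (-0.96 ± 0.16), the splicing factor Esrp2 (-1.16 ± 0.27) and the protease Prss8. Trophectoderm and primitive endoderm, cells that an ESC culture could hold, were followed by 9 markers. In P1 heart 2 were lower than in ESC (Cdx2 and Gata3), against 7.11% of all genes, and 2 higher (Gata4 and Gata6), against 5.59%. In P1 liver 2 were lower than in ESC (Cdx2 and Eomes), against 5.05%, and 2 higher (Gata4 and Dab2), against 10.4%. The summed FPKM of the 9 markers was 10.001 and 9.08 in ESC, with none at 0. It was 7.58 and 8.25 in P1 heart, with 1 marker at 0 in each library, and 7.22 and 7.56 in P1 liver. Their part in the ESC keratin values was not tested. Of 5 pluripotency markers no body passed in P1 heart against ESC. In P1 liver 1 was lower, Esrrb (-1.10 ± 0.21), against 5.05% of all genes. The promoter of another, Tdgf1, was listed at 0 in both ESC libraries and was higher in P1 heart (adjusted p = 0.0144) and in P1 liver (adjusted p = 0.0118). Of 6 erythroid markers, cells that newborn liver holds, no body passed in newborn heart against newborn liver. Of all genes only 0.348% passed as higher and 1.93% as lower there. The list median was -0.84, against -0.23 for all genes. Without W8 heart replicate 2 there were 2 lower, against 16.5% of all genes, and 0 higher, against 5.9%.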

How the data were processed

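Enriched DNA of 12 libraries in 7 groups was measured. The authors deposited tables of 13581 genes whose values are FPKM, per the file headers, over gene bodies and promoter windows. Coordinates are given 1-based. The submitters' processing notes name Bowtie2 and mm9. For the read counter, its settings and all versions, the sources used here give nothing. No per-sample column was left unused (0 columns). Of the genes, 23 had no coordinates and 9 a body of length 0 or less, which left 13549. Reads were recovered from the steps between low FPKM values and used only for depth, pooled levels and intervals (exact, 95%), which cover counting error only.

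Values were tested as log2(FPKM + pseudocount) with limma 3.58.1 in R 4.3.3, with 7 group means over all 12 libraries, a trend on the mean, and Benjamini-Hochberg adjustment over all genes at 0.05. Fold changes are on that scale, which understates changes of low genes. The pseudocount, also the smallest mean kept, was the median non-zero value divided by 10, 0.0746 for gene bodies (13498 genes tested, 51 left out) and 0.0723 for promoters (13506 and 43). All 37 keratins were kept. The fit has 5 residual degrees of freedom. The 7 comparisons were run in 2 windows. Summaries used Python 3.11.15, pandas 2.3.3 and scipy 1.17.1. The fit was tested on simulated data for P1 heart against P1 liver, with reads that varied by counting error only.

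Members were all symbols of Krt and a digit. Named one by one were Krt8, Krt7, Krt19, Krt20, Krt23, Krt80, Krt5, Krt14, Krt1, Krt10, Krt15, Krt17, all called members up to 20, and the 3 highest and 3 lowest by mean in each window. Members and gene lists were chosen with earlier results of these data known. Alternatives were the replicate number as a block, median centring, a pseudocount 5 times larger, no filter, only the groups compared, and each replicate left out in turn. The result of the bile duct marker list is not reported here.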

Additional observations from a re-analysis of the deposited data

How the results depend on the processing

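Counts of called keratins depended on the spread that 5 residual degrees of freedom estimate. Of 210 recomputed counts 124 stayed within 1.5 times and 86 did not. Of 182 recomputed medians of keratins less the median of all genes, 173 moved by less than a cut and 9 by more. The cut was scaled from the standard deviation of the keratin median between replicates, 0.155 for gene bodies and 1.15 for promoters. Promoter medians could hardly move past so wide a cut, so they do not show stability. None of the named calls changed direction in 15 settings. Krt31 and Krt80 (gene body, W8 heart against W8 liver) and Krt13 (P1 liver against ESC) passed in 12 of 15. The calls of Krt31 and Krt80 were lost without either W8 liver library and with only the groups compared. That of Krt13 was lost without either ESC library and without P1 liver replicate 1. All of these settings change the libraries of the groups compared or the fit to them alone.

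With the replicate block, the gene body counts were 0 for P1 heart against P1 liver (1 without the block), 4 for W8 heart against W8 liver (8) and 1 for P1 heart against ESC (2), and the promoter count was 0 for W8 liver against P1 liver (1). Deviations of same-numbered libraries had r between -0.02 and 0.04 over 20 pairs of groups, so the numbers do not pair the samples. Median centring gave 0, 1 and 1 gene bodies for P1 heart against P1 liver, P1 heart against ESC and W8 liver against P1 liver, and 0 promoters for the last. Centring sets the keratin median against that of all genes, which turns the gene body median of W8 heart against P1 heart from -0.03 to 0.27.

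A pseudocount 5 times larger gave 5 gene bodies for W8 heart against W8 liver and 9 for P1 liver against ESC, and 2, 4, 2 and 0 promoters for W8 heart against W8 liver, P1 heart against ESC, P1 liver against ESC and W8 liver against P1 liver. It moved the gene body median less that of all genes from 1.02 to 0.58 for W8 heart against W8 liver, from -1.04 to -0.59 for P1 liver against ESC, from -0.50 to -0.27 for W8 liver against P1 liver and from 0.77 to 0.42 for the interaction. With only the groups compared in the fit, gene bodies numbered 0 for both heart against liver comparisons, 11 for P1 liver against ESC and 8 for W8 liver against P1 liver, and promoters 0, 6 and 2 for W8 heart against W8 liver, P1 liver against ESC and W8 liver against P1 liver. The cause of these shifts was not tested.

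Leaving out 1 library at a time gave 0 to 5 gene bodies for P1 heart against P1 liver, 0 to 13 for W8 heart against W8 liver, 0 to 5 for P1 heart against ESC, 0 to 8 for P1 liver against ESC, 0 to 14 for W8 heart against P1 heart, 0 to 6 for W8 liver against P1 liver and 0 to 7 for the interaction. Promoters ranged from 0 to 11 for W8 heart against W8 liver, 0 to 5 for P1 heart against ESC, 0 to 2 for P1 liver against ESC, 0 to 16 for W8 heart against P1 heart, 0 to 1 for W8 liver against P1 liver and 0 to 7 for the interaction. The highest counts for W8 heart, 13, 14, 11 and 16, and for the interactions, 7 in each window, came without W8 heart replicate 1, which leaves the shallow library alone in its group, where it is assumed to vary like the other groups. The gene body median less that of all genes ranged from -0.12 to 0.50 for P1 heart against P1 liver, from 0.08 to 0.54 for W8 heart against P1 heart and from 0.42 to 0.91 for the interaction. Depth limits promoters most, where the median keratin held 0 reads in W8 heart replicate 2.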
